A study of Mus musculus with 6 samples.

Results

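The genes that attach the ubiquitin-like protein ISG15 to other proteins, and the gene that removes it, were described in RNA-seq libraries of primary mouse chondrocytes, the cells of cartilage. They were taken by name, and they are Isg15 itself, the activating enzyme Uba7, the conjugating enzyme Ube2l6, the ligase Herc6 and the protease Usp18, 5 genes of 55416 in the deposited table. The set was selected on the counts and TPM values of these same groups, whose differences were already known, so the values of the 5 genes in that comparison are a description and carry no p-value. All 5 passed the filter on low counts, which kept 15269 genes.

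The cells had received either a scrambled siRNA as control (siNC, 3 libraries) or an siRNA to Pkm2 (siPkm2, 3 libraries), Pkm2 being the isoform of pyruvate kinase M that the study followed in osteoarthritis. The sample labels give knee joints of neonatal mice as the source and culture in DMEM/F12 with serum for both groups, with genotype WT for siNC, while the supplementary methods describe isolation from grown mice. The labels call the genotype of siPkm2 replicates 1, 2 and 3 PKM2, PKM3 and PKM4 knockdown in turn, although all titles name siPKM2, and all were taken as siPkm2. The supplementary methods give an siRNA, a dose and a time of the knockdown check for cultured chondrocytes in general, and the labels do not tie them to these libraries. The statistics section describes independent repeats of all experiments, and neither it nor the labels say whether the replicates here were separate animals or cultures.

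ISG15 is a small protein of the ubiquitin family that is made after interferon signalling and is joined to lysines of other proteins. UBA7 activates it as the E1 enzyme, UBE2L6 carries it as the E2 enzyme, and in mice HERC6 acts as the main E3 ligase. USP18 cleaves ISG15 from its targets and, apart from that activity, binds the type I interferon receptor and damps its signal. All 5 genes are known interferon-stimulated genes.

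Promoter sequence is shown first, because genes of this class are described as targets of interferon regulatory factors, whose binding element holds repeats of the half-site AANNGAAA. RefSeq promoters on GRCm38.p6, from 250 bases before to 50 after the start of the gene, were found for 4 of the 5 genes, Usp18 being the exception. Both strands were searched for that half-site and for the interferon-stimulated response element (ISRE) core GAAANNGAAA, which contains a half-site. The windows below read 5′ to 3′ on the strand of the gene, with half-sites in capitals; a half-site on the opposite strand is seen as its reverse complement.
Isg15, chr4:156200870-156200899, minus strand: taggaAAAGGAAACCGAAACAGAAAatagc
Isg15, chr4:156200928-156200957, minus strand: cccaactacagTTTCTTTTcattcagtttt
Uba7, chr9:107975529-107975558, plus strand: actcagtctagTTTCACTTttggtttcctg

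The first Isg15 window lies 81 to 52 bases before the start and holds 3 overlapping half-sites in a row and 3 ISRE cores. Of 32851 RefSeq promoters of the same length, 3.44% hold an ISRE core and 5 promoters (0.0152%) hold 3 or more. The second Isg15 window and the Uba7 window each hold 1 half-site on the opposite strand and no ISRE core, and 23.9% of all promoters hold a half-site. No half-site or ISRE core was found in the promoter windows of Ube2l6 and Herc6. The GAS motif TTCNNNGAA, the interferon-gamma activated site, was in none of the 4 promoters and in 8.30% of all. A match is only a match of letters.

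In GENCODE M21 on GRCm38, Isg15 lies on chromosome 4 from 156199424 to 156200818 (minus strand), Uba7 on chromosome 9 from 107975505 to 107984060, and Ube2l6 on chromosome 2 from 84798828 to 84810335. Herc6 and Usp18 are both on chromosome 6, from 57581000 to 57664632 and from 121245906 to 121270917, and all but Isg15 are on the plus strand. The RefSeq start of Uba7 lies downstream of its GENCODE start, so the Uba7 window shown above is upstream of the former and inside the gene by the latter. Annotated genes overlap Uba7 (Gm20661), Herc6 (Gm45193 and Gm19244) and Usp18 (Gm44148), and none of these held more than 28.5 estimated counts in any library. The Isg15 copy Gm9706 held between 0 and 5 estimated counts, and how the counting treated reads shared with it is not given in the sources used here.

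Library totals lay between 22316996 and 25691029 estimated counts. Pkm, the siRNA target, was at 1654, 2209 and 1293 TPM (a level scaled for transcript length and library total) in siNC replicates 1, 2 and 3 and at 245, 428 and 231 TPM in siPkm2, with no overlap. Libraries with the same replicate number deviated together from their group means, so they are compared below as pairs 1, 2 and 3. Replicate 2 of both groups stood apart. The 12 chondrocyte markers, all detected, summed to 4535 TPM in siNC replicate 2 and 6042 TPM in siPkm2 replicate 2, against 17520 to 22020 TPM in the other 4 libraries. The 9 leukocyte markers summed to 99.1 and 58.7 TPM in replicate 2 of siNC and siPkm2 and to between 9.18 and 20.8 TPM elsewhere. In both of the former Cd68 gave most of the sum, and Ptprc, Itgam and Cd3e were under 0.1 TPM in all 6 libraries.

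Isg15, the modifier, was at 10.4, 747 and 23.1 TPM in siNC replicates 1, 2 and 3. It was at 742, 1402 and 421 TPM in siPkm2 replicates 1, 2 and 3. The groups overlapped through 1 library: siNC replicate 2 was above siPkm2 replicates 1 and 3, while siNC replicates 1 and 3 were below every siPkm2 library. In CPM (counts over the library total, after TMM scaling) siNC replicate 2 lay above siPkm2 replicate 3 only. Within pairs, Isg15 was 67.0-fold higher in siPkm2 in pair 1, 1.95-fold in pair 2 and 19.3-fold in pair 3, in CPM. Among the genes tested, its TPM stood above 46.8% of genes in siNC replicate 1 and 63.8% in siNC replicate 3, and above at least 97.8% in the other 4 libraries. The group means were 260.1 ± 421.5 TPM (SD, n = 3) in siNC and 855 ± 500.1 TPM (SD, n = 3) in siPkm2. In edgeR's quasi-likelihood fit without the pairing the log2 fold change was 1.80 ± 1.46 (SE), and blocking on the replicate number gave 3.72 ± 1.07 (SE).

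Uba7, the E1 enzyme that starts the ISG15 pathway, was at 8.87, 47.1 and 15.7 TPM in siNC replicates 1, 2 and 3. In siPkm2 replicates 1, 2 and 3 it was at 15.1, 46.9 and 21.6 TPM. The groups overlapped, and replicate 2 was the highest library in each. Uba7 was 2.64-fold higher in siPkm2 in pair 1 and 2.03-fold in pair 3, whereas in pair 2 its ratio of siPkm2 over siNC was 0.928. Its log2 fold change was 0.34 ± 0.80 (SE) without the block and 0.74 ± 0.30 (SE) with it, the smallest of the 5 genes in both fits. Its direction without the block rested on single libraries: the value was -0.09 without siNC replicate 1, -0.22 without siPkm2 replicate 2 and 1.74 without siNC replicate 2.

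Ube2l6, the E2 enzyme that takes ISG15 from UBA7, was at 8.96, 68.3 and 11.4 TPM in siNC replicates 1, 2 and 3. In siPkm2 the same replicates held 46.6, 125 and 36.2 TPM. Only siNC replicate 2 overlapped the siPkm2 libraries, and the other siNC libraries lay below all of them. Ube2l6 was 5.07-fold, 1.96-fold and 3.28-fold higher in siPkm2 in pairs 1, 2 and 3. Its log2 fold change was 1.32 ± 0.84 (SE) without the block and 1.65 ± 0.26 (SE) with it.

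Herc6, the HECT-type ligase that transfers ISG15 to its targets, was at 2.48, 23.9 and 4.45 TPM in siNC replicates 1, 2 and 3. It stood at 16.3, 40.6 and 13.3 TPM in siPkm2 replicates 1, 2 and 3. Its order of libraries was that of Ube2l6, with siNC replicate 2 above siPkm2 replicates 1 and 3. Herc6 was 7.36-fold, 1.70-fold and 5.13-fold higher in siPkm2 in pairs 1, 2 and 3, and its log2 fold change was 1.32 ± 0.95 (SE) without the block and 1.95 ± 0.42 (SE) with it.

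Usp18, the protease that takes ISG15 off again, was at 1.65, 119 and 3.04 TPM in siNC replicates 1, 2 and 3. Its siPkm2 values were 77.4, 222 and 54.9 TPM in replicates 1, 2 and 3. As with Isg15, siNC replicate 2 alone overlapped the siPkm2 group. In pairs 1, 2 and 3 Usp18 was 63.1-fold, 1.99-fold and 19.6-fold higher in siPkm2, close to the ratios of Isg15. Its log2 fold change was 1.65 ± 1.53 (SE) without the block and 3.48 ± 0.99 (SE) with it.

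**Figure D1:**
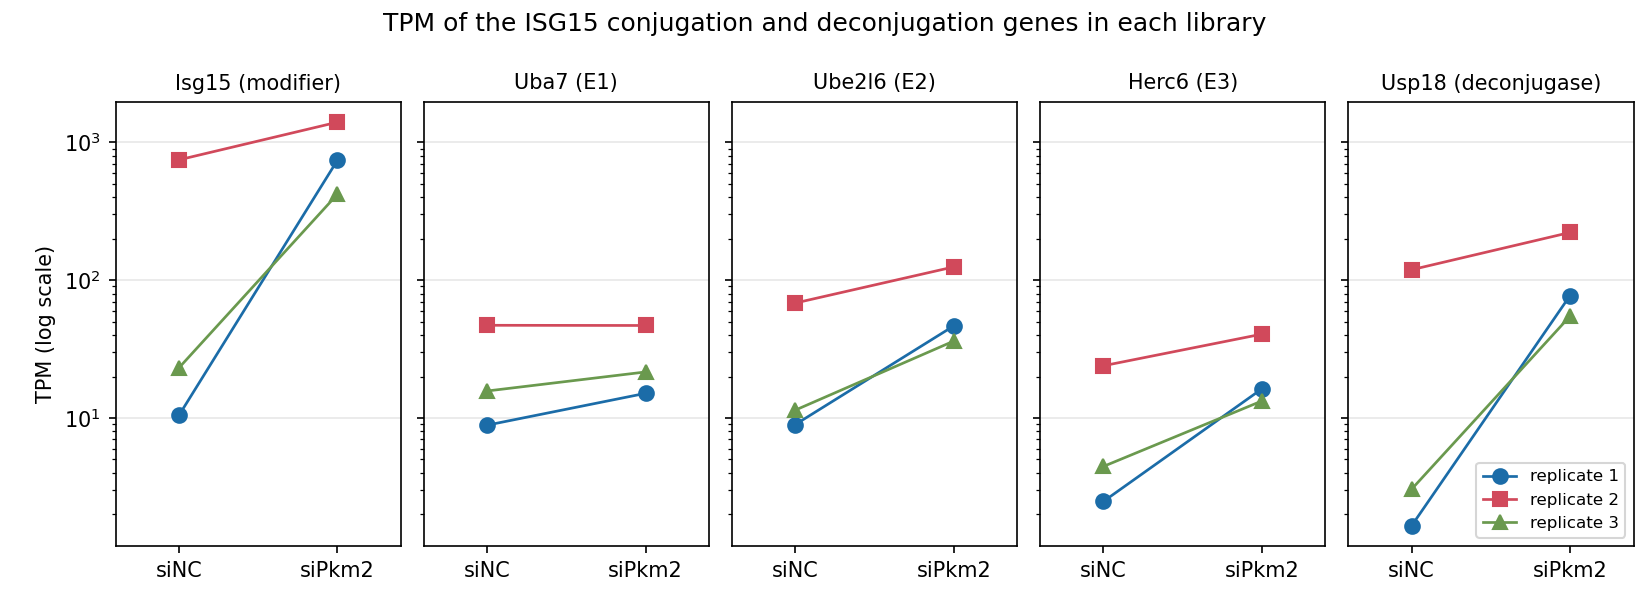
TPM on a log scale (y axis) in siNC and siPkm2 (x axis) for the 5 genes, 1 panel a gene, with 1 point a library and a line joining libraries of the same replicate number. Lines of replicates 1 and 3 rise in every panel, steepest for Isg15 and Usp18, while replicate 2 starts high, as at 747 TPM for Isg15, and is level for Uba7 (47.1 and 46.9 TPM).

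The range over the 6 libraries ordered the genes by how much they varied. From the lowest to the highest library CPM, Usp18 spanned 165.5-fold, Isg15 117-fold, Herc6 16.4-fold, Ube2l6 12.6-fold and Uba7 7.69-fold. In TPM, the means in siNC and siPkm2 (each ± SD, n = 3) were 23.9 ± 20.4 and 27.9 ± 16.8 for Uba7, 29.5 ± 33.6 and 69.2 ± 48.5 for Ube2l6, 10.3 ± 11.9 and 23.4 ± 14.98 for Herc6, and 41.2 ± 67.4 and 118 ± 90.7 for Usp18. The difference of the means was below the larger SD for each of these 4 and above it for Isg15. The siNC libraries held most of the range: Isg15 spanned 60.3-fold there and 3.24-fold among the siPkm2 libraries, and Usp18 83.1-fold and 3.93-fold. In siNC the SD of log2 CPM was 3.14 for Isg15 and 3.29 for Usp18, above the SD of 99.7% of tested genes in each case, where the median gene had 0.32. The E1, E2 and E3 genes had SDs of 1.52, 1.48 and 1.82 in siNC, above at least 96.9% of genes.

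In all 3 pairs 4 of the 5 genes were higher in siPkm2, the exception being Uba7 in pair 2. Of all genes tested, 30.5% were higher in siPkm2 in all 3 pairs. None of the 5 had every siPkm2 library above every siNC library, as 12.0% of genes tested did. These shares are given beside counts that the choice of genes fixed and no inference was drawn from them.

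**Figure D2:**
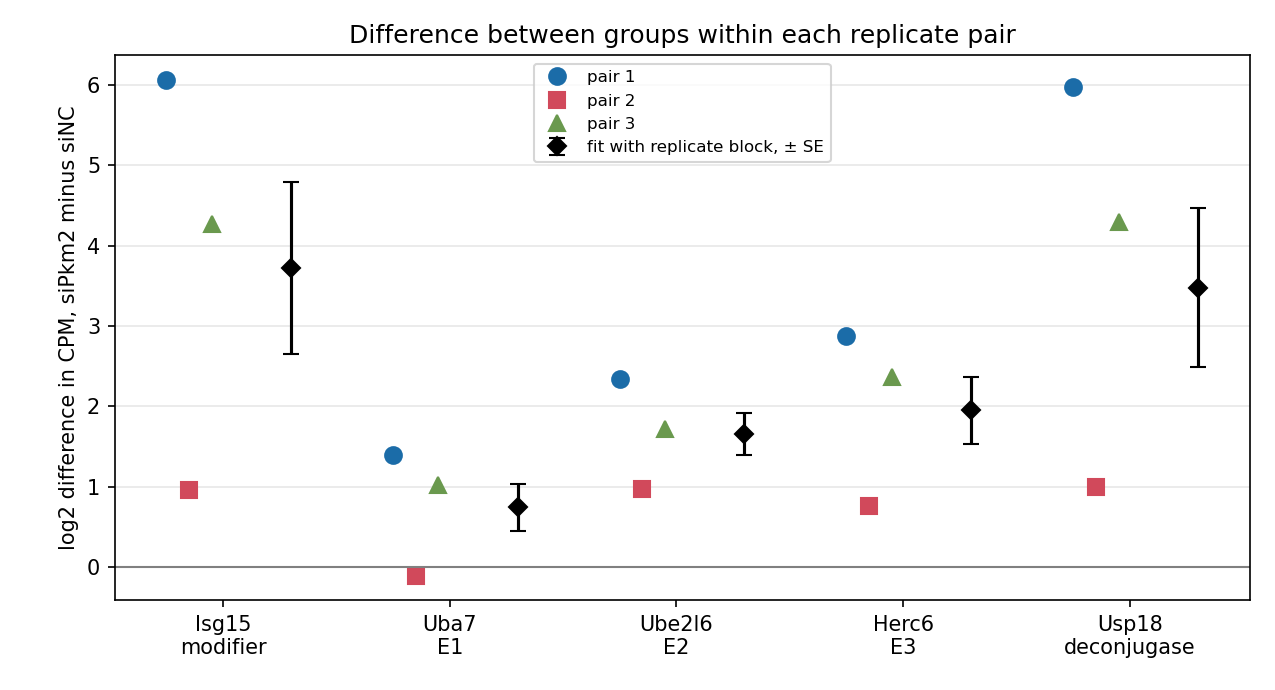
Log2 difference in CPM, siPkm2 minus siNC (y axis), for each gene (x axis) in pairs 1, 2 and 3 (coloured points), beside the estimate of the fit with the replicate block and its SE (black diamonds). For every gene pair 1 is highest and pair 2 lowest, and pair 2 lies just below 0 for Uba7.

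To be called, a gene had to differ by more than 2-fold at a Benjamini-Hochberg adjusted p under 0.05. Without the block, edgeR's quasi-likelihood test called 0 of 15269 genes (0.00%), with 2690 at an unadjusted p under 0.05, and none of the 5 genes. Pkm, the siRNA target, was not called there either, at -2.51 ± 0.33 (SE, adjusted p = 0.0738, same test). It was called with the block (adjusted p = 0.00932, same test), so a lack of calls without the block does not show a lack of change. DESeq2, run without the filter on 28059 genes, called 430 genes, Pkm among them, and none of the 5. With the block, Ube2l6 and Herc6 were among the genes called higher, which made up 2.65% of genes tested, and none of the 5 was among the 3.18% called lower. Isg15 and Usp18 had larger log2 fold changes than Ube2l6 and Herc6 but also larger SEs, with log2 differences of 0.96 and 0.99 in pair 2 and of 6.07 and 5.98 in pair 1. The median log2 fold change of the 5 genes was 1.32 without the block and 1.95 with it, against -0.02 and -0.01 for all genes tested.

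Without pair 1 or without pair 3, the fit with the block called no gene of the 5 and none of the others tested, with 3937 and 3598 genes at an unadjusted p under 0.05. Without pair 2, it called all 5 genes, where 4.94% of genes were called higher, and the log2 fold changes were 5.11 for Isg15, 5.04 for Usp18, 2.61 for Herc6, 2.02 for Ube2l6 and 1.20 for Uba7. Leaving out only siNC replicate 2, without the block, raised the 5 values to 5.68, 5.85, 3.22, 2.74 and 1.74 in the same order, with Isg15 called and 0.417% of genes called higher. The lower chondrocyte and higher leukocyte marker sums of replicate 2 went with smaller differences between groups, and their part in the siNC replicate 2 levels was not tested. In RNA from whole cultures, fewer cells of a type and less RNA per cell cannot be told apart.

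On the TPM scale, which allows levels of different genes to be set side by side, Isg15 was the highest of the 5 in all 6 libraries. Usp18 changed place: it was the lowest of the 5 in siNC replicates 1 and 3 and second to Isg15 in siNC replicate 2 and every siPkm2 library. Herc6 was below Ube2l6 in every library. Uba7 and Ube2l6 exchanged places between siNC replicate 1, where they were at 8.87 and 8.96 TPM, and siNC replicate 3, where Uba7 was the higher, so their order in siNC did not hold beyond the spread.

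The sum of the 5 genes was 32.4, 1005 and 57.7 TPM in siNC replicates 1, 2 and 3 and 897, 1836 and 547 TPM in siPkm2. Isg15 made up 32.2%, 74.3% and 40.0% of that sum in siNC and 82.7%, 76.3% and 77.0% in siPkm2. Its share was thus at or above 74.3% in the 4 libraries with a large sum, siNC replicate 2 included, and at or below 40.0% in the 2 with a small one. Conversely, Uba7 held 27.4% and 27.2% of the sum in siNC replicates 1 and 3 and at most 4.68% in the other libraries.

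Over all libraries the modifier and its protease kept their proportion to each other more closely than to the conjugating enzymes. That contrast came from siNC replicates 1 and 3. The TPM ratio of Isg15 to Usp18 was 6.33, 6.27 and 7.60 in siNC replicates 1, 2 and 3 and 9.58, 6.31 and 7.67 in siPkm2, and the groups overlapped. The ratio of Isg15 to the summed E1, E2 and E3 genes was 0.514, 5.36 and 0.732 in siNC and 9.52, 6.60 and 5.92 in siPkm2. Usp18 over the same 3 genes was 0.0812, 0.855 and 0.0964 in siNC and 0.993, 1.05 and 0.773 in siPkm2. Outside siNC replicates 1 and 3, Isg15 over Usp18 ran from 6.27 to 9.58. In those libraries Isg15 over Ube2l6 ran from 10.9 to 15.9, over Herc6 from 31.2 to 45.6 and over Uba7 from 15.9 to 49.1. There the proportion to Usp18 was no steadier than that to Ube2l6 or Herc6. Transcript proportions are given here; free ISG15, conjugates and enzyme activity were not measured in these libraries.

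**Figure D3:**
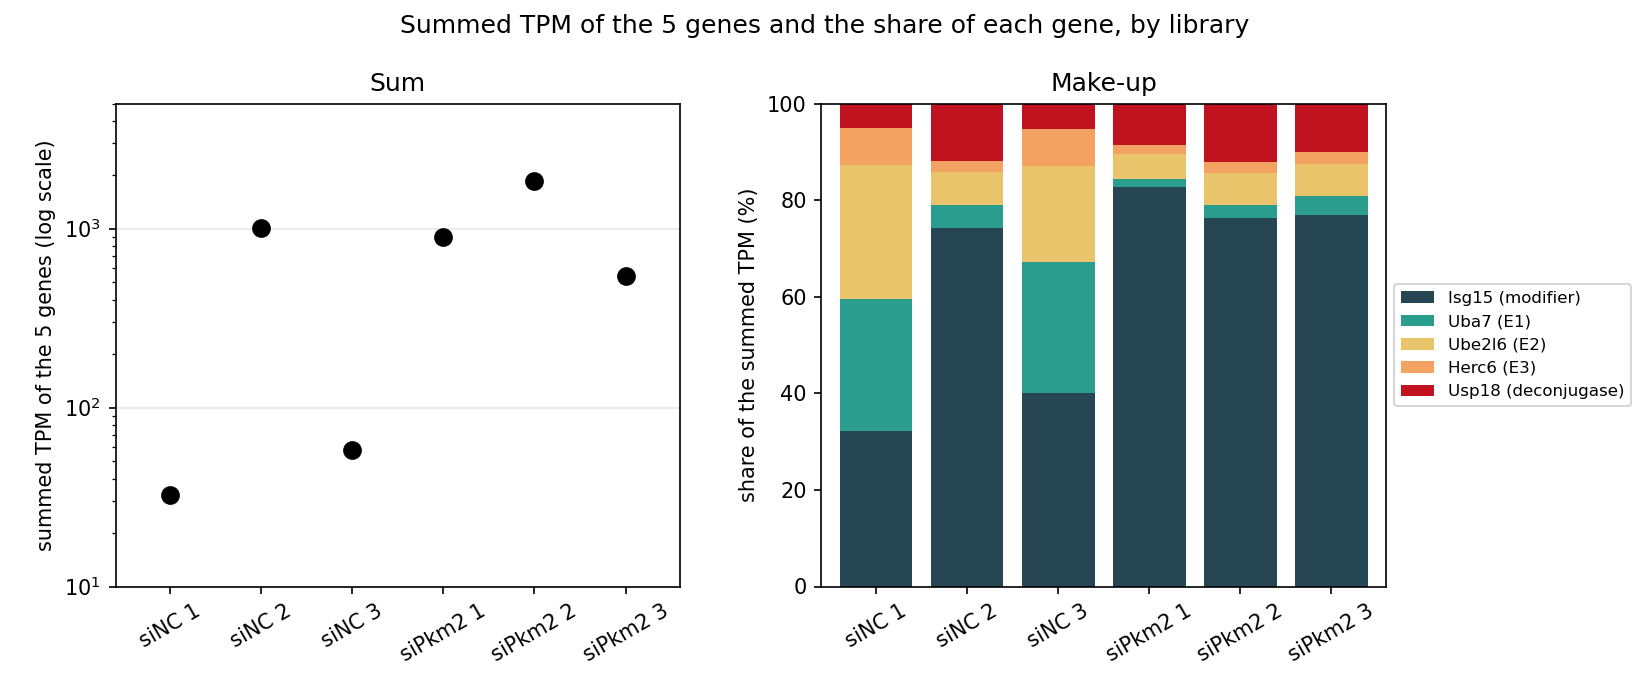
Summed TPM of the 5 genes on a log scale (left) and the share of each gene in that sum in percent (right), for the 6 libraries on the x axis. siNC replicates 1 and 3 have sums of 32.4 and 57.7 TPM and broad shares of the E1 and E2 genes, and in the other 4 libraries Isg15 holds 74.3% to 82.7%.

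Across the 6 libraries the log2 CPM of the 5 genes ran in parallel. Pearson's r between pairs of them lay between 0.88 (Isg15 and Uba7) and 1.00 (Isg15 and Usp18), as a description over libraries that share their groups and the high replicate 2. The genes most like the mean of the 5, among 13736 with a mean of at least 1 CPM, were Tmem106a, Trim25, Ifit3, Ifih1, Dhx58, Zbp1, Mx2 and H2-T23, with r from 0.9965 to 0.9992. In these 6 libraries 49 genes (0.357% of those ranked) had r over 0.99 and 5.73% had r over 0.9.

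Ifih1 and Dhx58 encode the cytosolic RNA sensors MDA5 and LGP2, Zbp1 a sensor of Z-form nucleic acid, Ifit3 and Mx2 antiviral effectors, and H2-T23 a non-classical class I molecule. For Ifit3, siNC replicates 1, 2 and 3 held 10.3, 410.4 and 14.7 CPM and the siPkm2 replicates 209, 612 and 172 CPM. Dhx58 had 3.76, 58.3 and 4.33 CPM in siNC, and 34.2, 99.5 and 32.0 CPM in siPkm2. In CPM, siNC replicate 2 alone overlapped the siPkm2 group in both, as it did for each of the 5 ISG15 genes on that scale. Ranked on log2(TPM + 0.1) instead, 3 of the 8 stayed among the 8 most alike (Trim25, Zbp1 and H2-T23). Dnm2, Dagla, Nlrc5, Snx9 and Trim30a took the other places, so the names, and the kinds of gene among them, depend on the scale.

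**Figure D4:**
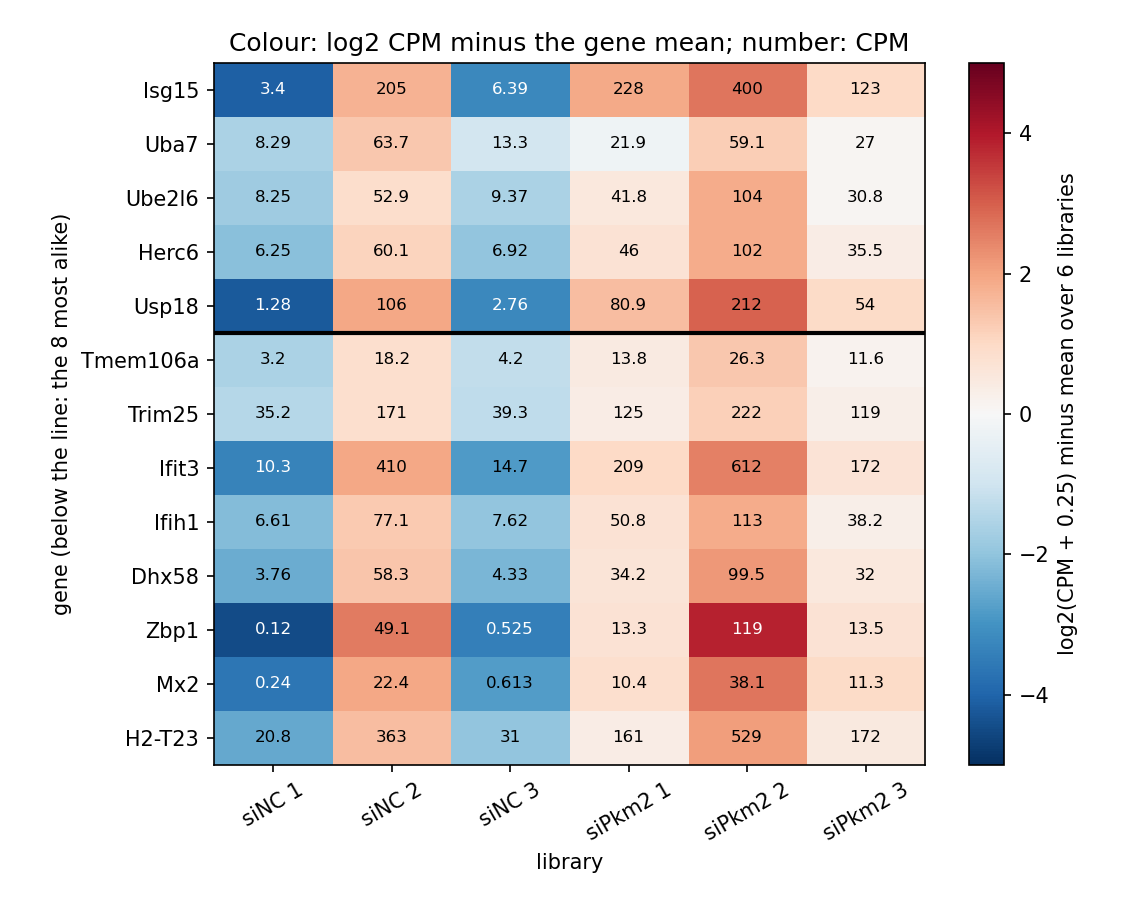
Log2(CPM + 0.25) minus the mean of the gene over the 6 libraries (colour), with the CPM printed in each cell, for the 5 genes (above the line) and the 8 genes most alike (below it), libraries on the x axis. siNC replicates 1 and 3 are low in every row and siPkm2 replicate 2 is the highest library in every row but that of Uba7.

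Other enzymes described to attach or remove ISG15 were taken as a list of 9, all tested. Like every list below, it had no call without the block. The calls with the block in these lists stand beside 2.65% of all genes tested called higher and 3.18% called lower. With the block, 1 of the 9 was called, Trim25, an ISG15 ligase that is also a ubiquitin ligase of the RIG-I pathway. Trim25 was at 10.2, 52.9 and 13.1 TPM in siNC replicates 1, 2 and 3 and at 33.8, 64.9 and 33.9 TPM in siPkm2, with a log2 fold change of 1.26 ± 0.29 (SE, adjusted p = 0.0357, edgeR with the block). Again siNC replicate 2 overlapped the siPkm2 group. Usp2, a protease reported to react with ISG15, had a log2 fold change of 0.86 ± 0.15 (SE) and Ube2e1, an alternative E2 enzyme, 0.35 ± 0.08 (SE), and both had adjusted p-values under 0.05 (0.0204 and 0.0324, same test) without reaching the fold. Usp13, a deubiquitinase also reported to bind ISG15 probes, was at -0.35 ± 0.15 (SE, adjusted p = 0.145, same test). The median log2 fold change of the 9 with the block was 0.13.

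The closest relatives of the conjugating enzymes in the ubiquitin pathway were set beside them. Of 7 relatives (Uba1, Uba6, Ube2l3 and Herc1 to Herc4) none was called, and their log2 fold changes with the block ran from 0.09 to 0.51. Ube2l3, the ubiquitin E2 enzyme nearest to Ube2l6, was at 115, 102 and 96.0 TPM in siNC and 157, 126 and 136 TPM in siPkm2, without overlap and with a log2 fold change of 0.41 ± 0.09 (SE, adjusted p = 0.0346, edgeR with the block). Herc3 and Uba6 were at 0.51 ± 0.34 and 0.29 ± 0.12 (SE), neither past the adjusted p. None of the 4 genes that encode ubiquitin was called, and Ubb, with 1351, 1187 and 1515 TPM in siNC and 1452, 1559 and 1546 TPM in siPkm2, was at 0.22 ± 0.12 (SE).

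Other ubiquitin-like systems were set beside ISG15 in the same fit. None of the 16 SUMO genes, 10 NEDD8 genes, 8 UFM1 genes and 2 tested genes of the FAT10 and URM1 list was called in either direction. Of all genes tested, 2.65% were called higher and 3.18% lower, so few calls would be looked for in lists of this size. Their medians were 0.04, 0.04, 0.04 and 0.24. The median of 1.95 for the ISG15 genes is that of a set chosen with its values known. The widest values of the SUMO, NEDD8 and UFM1 lists were 0.45 ± 0.08 (SE) for the SUMO protease Senp3, 0.42 ± 0.08 for Nedd8 and -0.60 ± 0.11 for the UFM1 ligase Ufl1, each with an adjusted p under 0.05 (0.0189, 0.0255 and 0.0205, edgeR with the block) and a fold below 2. The modifier genes themselves differed on the log2 scale by 3.72 for Isg15, 0.42 for Nedd8 and 0.41 for Ufm1.

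**Figure D5:**
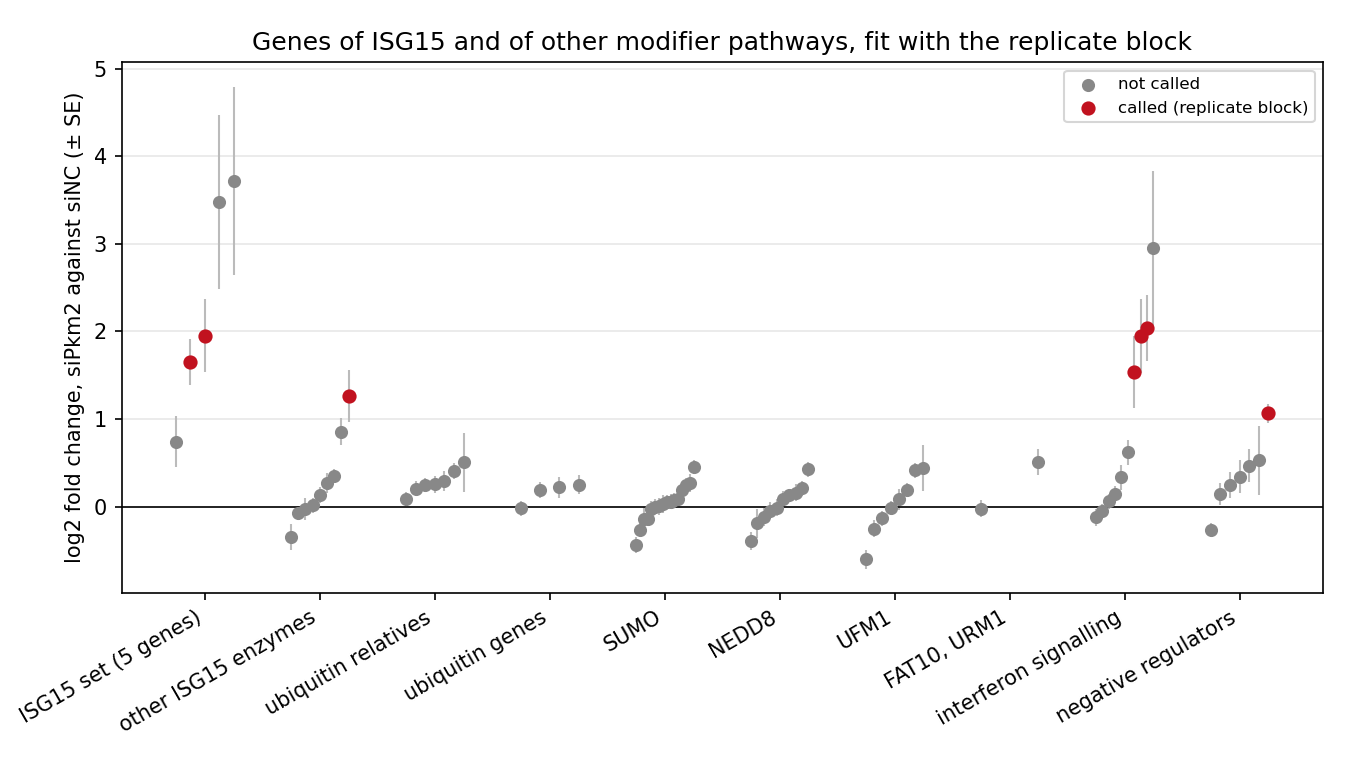
Log2 fold change of siPkm2 against siNC with its SE (y axis), from the fit with the replicate block, for each tested gene of 10 lists (x axis); red points were called. The ISG15 genes run from 0.74 to 3.72, the genes of the ubiquitin, SUMO, NEDD8, UFM1, FAT10 and URM1 lists lie between -0.60 and 0.51, and 3 interferon signalling genes are called.

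Upstream of Isg15 and Usp18, the type I interferon receptor signals through the kinases JAK1 and TYK2 to a complex that holds STAT2 and IRF9 and binds the ISRE. Of 10 genes of this list, 3 were called with the block, Stat2 and Irf9 among them. Stat2 was at 11.2, 147 and 20.4 TPM in siNC replicates 1, 2 and 3 and at 81.4, 215 and 95.1 TPM in siPkm2, with a log2 fold change of 1.95 ± 0.42 (SE, adjusted p = 0.0299, edgeR with the block). Irf9 followed at 1.54 ± 0.41 (SE, adjusted p = 0.0484, same test). As for Herc6, siNC replicate 2 overlapped the siPkm2 group in both.

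Irf7, a factor that amplifies interferon production, was at 2.86, 283 and 4.20 TPM in siNC and 71.6, 386 and 55.6 TPM in siPkm2, with a log2 fold change of 2.95 ± 0.88 (SE) that did not pass (adjusted p = 0.0648, same test). The receptor chains Ifnar1 and Ifnar2, the latter encoding the chain that USP18 binds, had log2 fold changes of -0.05 ± 0.08 and 0.14 ± 0.09 (SE). Jak1, Tyk2 and Irf3 lay between -0.12 and 0.34, and Irf1 was at 0.62 ± 0.14 (SE, adjusted p = 0.0344, same test, fold below 2).

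Of 7 Usp18 partners and other negative regulators of interferon signalling, Ptpn1, a phosphatase of JAK kinases, was called with the block. It was at 49.0, 94.2 and 33.8 TPM in siNC and at 114, 165 and 129 TPM in siPkm2, with no overlap and a log2 fold change of 1.06 ± 0.11 (SE, adjusted p = 0.0112, edgeR with the block). Socs1 and Socs3, which block JAK activity, were at 0.34 ± 0.19 and 0.47 ± 0.19 (SE), not called. Ptpn6 was at 0.53 ± 0.39 (SE). Usp18 had a larger log2 fold change than each of the 7 in this fit, with a larger SE, but it was chosen with its values known. Without the block the values were 1.65 ± 1.53 (SE) for Usp18 and 1.05 ± 0.21 (SE) for Ptpn1, and no ranking is drawn from them.

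Interferon transcripts themselves were scarce. Of 19 interferon genes, 3 had any count, and 16 were at 0 in all 6 libraries, where a count of 0 allows up to 3 counts. Ifnb1 held 5 estimated counts in siNC replicate 2 and 28 in siPkm2 replicate 2 and 0 in the other 4 libraries, among them the siPkm2 libraries with 742 and 421 TPM of Isg15. Ifnz, the only one tested, was at 0.21, 0.53 and 0.81 TPM in siNC and 1.31, 0.37 and 1.52 TPM in siPkm2. The chains of LFA-1 (Itgal and Itgb2), described as the receptor of secreted ISG15, held at most 10 and 42 estimated counts in any library and were not tested.

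Markers of other cells that a knee-joint culture could hold were summed. The 5 endothelial markers came to between 0.39 and 1.05 TPM in all libraries. The 7 fibroblast markers summed to between 2041 and 4009 TPM in siNC and between 1344 and 2632 TPM in siPkm2. With the block 2 of them were called higher, Prg4, which encodes lubricin, at 2.15 ± 0.44 (SE, adjusted p = 0.0272, same test), and Pdpn, which encodes podoplanin, at 1.19 ± 0.24 (SE, adjusted p = 0.0272, same test). The other 5 had negative log2 fold changes and were not called, from -0.32 ± 0.22 for Col1a2 to -0.92 ± 0.35 for Thy1 (SE), with -0.38 for Pdgfra, -0.62 for Col1a1 and -0.65 for Dpt, and the median of the 7 was -0.38. Without pair 2, the same fit called 1 of the 7 lower, Thy1. Prg4 does not mark fibroblasts alone, since the paper lists it among the matrix genes higher in a human chondrocyte subgroup.

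Of the 9 leukocyte markers 3 were tested, and none was called with the block. Cd68, a macrophage lysosomal protein, was at 6.31, 92.8 and 2.93 TPM in siNC and 17.6, 53.4 and 6.33 TPM in siPkm2, higher in siPkm2 in pairs 1 and 3 and lower in pair 2, and without pair 2 it was the 1 leukocyte marker called higher. Lyz2, which encodes lysozyme, was lower in siPkm2 in each pair, at 3.46, 5.09 and 5.44 TPM in siNC and 2.74, 4.52 and 5.12 TPM in siPkm2. Csf1r, a macrophage growth factor receptor, was at 0.42, 1.27 and 0.69 TPM in siNC and 0.32, 0.66 and 0.66 TPM in siPkm2, while in CPM it was higher in siPkm2 in 2 of 3 pairs. The part of these cells in the levels of the ISG15 genes was not tested.

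The deposited gene ontology columns place 3 of the 5 genes (Isg15, Uba7 and Ube2l6) under ISG15-protein conjugation, a term held by 5 of the tested genes. A different 3 (Isg15, Herc6 and Usp18) share the term response to bacterium with 95 tested genes in all.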

How the data were processed

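Per the labels, 6 RNA libraries of primary mouse chondrocytes were prepared with Illumina protocols and sequenced. The authors deposited estimated counts per gene, not normalized and partly fractional, and TPM values, which the authors scaled within each library, together with their own comparison of the groups (fold change, log2 fold change, p-value and adjusted p-value), which was not used. The submitters' processing notes name the build mm9 and edgeR; the aligner and counting tool are not given in the sources used here. Identifiers were matched to GENCODE M21 on GRCm38 (52083, or 94.0%), which gave positions, and RefSeq GRCm38.p6 gave promoters.

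Rounded estimated counts were fitted in R 4.3.3. The main tool was edgeR 4.0.16, whose filterByExpr kept 15269 genes. Library sizes were scaled by TMM factors. Each gene's p came from the quasi-likelihood test of edgeR and was adjusted over every gene tested (Benjamini-Hochberg); p-values credited to edgeR in the text are from that test. DESeq2 was version 1.42.0. Alternatives were RLE factors, no filter, DESeq2's Wald test, each library left out, no fold threshold and the replicate number as a block; each pair left out with the block was added after seeing the data. The fits were also run on simulated counts, with replicate effects of the same size in every pair. No pair stood apart there as replicate 2 does here, so the simulation does not cover that feature of the data. Values after ± are the SD or SE as named. Depth covers counting error only, and p-values measure the spread between these libraries, which may be technical.

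Both groups carry replicate numbers 1, 2 and 3. Deviations from the group means correlated at 0.664, 0.756 and 0.646 across genes for equal numbers and at most 0.158 for unequal ones, so the numbers were taken to pair the libraries. Library pairs within a group differed by more than sampling noise for 52.6% to 73.4% of genes, so none was a duplicate.

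The 5 genes and all lists were chosen with earlier results of these data known. Named are the 5 genes, Pkm, the called genes of each list or up to 4 with the largest log2 fold change, and the 8 genes whose log2 CPM (plus 0.25) correlated best with the mean of the 5 standardized genes. Further genes named in the lists (Ifnar1, Ifnar2, Jak1, Tyk2, Irf1, Irf3, Uba1, Herc1, Herc2, Ifnb1, Itgal and Itgb2) were chosen after their values were seen. Some genes of the lists are not reported here by name.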

Additional observations from a re-analysis of the deposited data

How the results depend on the processing

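Without the block, 0 genes were called with TMM or RLE factors and 9 with no filter on low counts, and DESeq2 called 430, of which 0 were among the 5 genes and 2 were in the other lists. With the replicate block 890 genes were called, 2 of the 5 and 7 in the other lists. Leaving out pair 2 as well gave 1639, 5 and 10, with a median log2 fold change of 2.61 for the 5 genes, and leaving out pair 1 or pair 3 gave 0 genes. With each library left out in turn without the block, calls ran from 0 to 105 genes, from 0 to 1 of the 5 and from 0 to 2 in the other lists, and the median of the 5 from 0.74 to 3.22; each highest value was without siNC replicate 2, and the 5 fits with 0 calls had 1669 to 2651 genes at an unadjusted p under 0.05. Isg15 ran from 1.25 to 5.68, Usp18 from 0.88 to 5.85, Herc6 from 0.74 to 3.22 and Ube2l6 from 0.63 to 2.74, all positive, while Uba7 ran from -0.22 to 1.74 and was negative in 2 of 6. The choice of scale left 3 of the 8 most alike genes in place. With 3 libraries a group and 1 control library standing apart, the size of each difference is poorly fixed.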
